A study of Homo sapiens with 15 samples.

Results

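The 10 genes described here are the receptors of the ERBB family other than ERBB2 (HER2), namely EGFR, ERBB3 and ERBB4, and 7 of the family's ligands, namely TGFA, EGF, BTC, HBEGF, EREG, AREG and NRG1. They were taken by gene name from 19843 names, and all 10 were found. RNA was sequenced from HCC1954, an established HER2-positive (ERBB2-amplified) human breast carcinoma line, in 15 libraries. The groups were cells of metachronous brain metastases (M-BM, 4 libraries), latent or residual brain-tropic cells (Lat, 4), cells of synchronous brain metastases (S-BM, 4) and the parental line (Pa, 3). Every group is HCC1954 held overnight in R3F culture before RNA extraction, so the values describe cultured cells and not tissue. The labels name no host animal, age, added gene or drug, and it is not stated if libraries within a group were separate cultures, clones or animals. The p-values therefore measure library-to-library spread within these samples, part or all of which may be technical.

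ERBB receptors are tyrosine kinases of the cell surface that work in pairs. EGFR binds TGF-alpha, EGF, amphiregulin, betacellulin, HB-EGF and epiregulin; ERBB3 and ERBB4 bind neuregulins; and ERBB2, which has no known ligand of its own, is the preferred partner of the others. ERBB3 has a weak kinase and signals mainly through its partner, and the ERBB2-ERBB3 pair is a strong activator of PI3K in HER2-positive breast cancer. The ligands are made as membrane-bound precursors that proteases release, and signalling downstream of the receptors runs through RAS to the MAPK ERK.

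Values are normalized read counts as deposited. Reads assigned to genes came to between 13.25 and 21.84 M per library in M-BM, Lat and S-BM and to between 15.51 and 18.66 M in Pa, and 3 reads, taken as the floor of detection, corresponded to a value of 0.136 to 0.225; floors and counting intervals cover counting error only. Pa stands in a table of its own that was normalized separately, so its values, multiplied by 1.0195, are set beside the others as levels, and no test crosses the tables. All 6 epithelial markers, including EPCAM, KRT8, KRT18 and CDH1, passed the filter on low values, as the labelled breast line would have. The ERBB2 value was 353.1 in S-BM 3 and 367.3 in S-BM 4, against 4109.3 in S-BM 1 and 4642.4 in S-BM 2, so the 4 S-BM libraries are 2 unlike pairs in the gene that defines the line as HER2-positive. The closest libraries among the brain-derived groups were this low-ERBB2 pair and the pair Lat 1 and Lat 2, and even they differed by more than sampling noise.

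The promoters of 3 genes are shown because these genes span the levels found: EGFR is the most abundant member in cells from brain, TGFA the most abundant ligand, and AREG was close to absent. Each runs from 250 bases before to 50 bases after the RefSeq transcription start (GRCh38.p14). EGFR is at chr7:55018767-55019066 on the + strand, TGFA at chr2:70553777-70554076 on the - strand and AREG at chr4:74444886-74445185 on the + strand. Capitals mark matches, on either strand, to the GC box core GGGCGG, the TATA box TATAAA, the CCAAT box CCAAT and the AP-2 site GCCNNNGGC.
EGFR: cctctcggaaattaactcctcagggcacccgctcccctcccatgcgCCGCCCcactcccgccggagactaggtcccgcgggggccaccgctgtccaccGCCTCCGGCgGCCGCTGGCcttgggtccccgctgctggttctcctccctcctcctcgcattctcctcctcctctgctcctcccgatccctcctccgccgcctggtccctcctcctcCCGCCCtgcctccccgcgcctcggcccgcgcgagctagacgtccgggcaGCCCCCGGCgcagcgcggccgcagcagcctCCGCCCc
TGFA: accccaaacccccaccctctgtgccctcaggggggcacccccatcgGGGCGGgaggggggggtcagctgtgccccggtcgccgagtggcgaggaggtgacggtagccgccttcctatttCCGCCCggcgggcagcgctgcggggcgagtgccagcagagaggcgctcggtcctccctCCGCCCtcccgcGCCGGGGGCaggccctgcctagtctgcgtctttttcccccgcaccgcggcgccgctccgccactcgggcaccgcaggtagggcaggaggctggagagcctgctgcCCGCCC
AREG: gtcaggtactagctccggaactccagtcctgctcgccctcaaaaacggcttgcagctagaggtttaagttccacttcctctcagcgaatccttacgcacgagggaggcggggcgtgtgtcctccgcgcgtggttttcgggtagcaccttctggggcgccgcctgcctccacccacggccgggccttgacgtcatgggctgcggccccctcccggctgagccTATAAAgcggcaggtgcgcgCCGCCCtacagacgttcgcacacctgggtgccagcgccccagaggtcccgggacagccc
The EGFR window held 3 GC box cores and 3 AP-2 matches and no TATA or CCAAT box, and the TGFA window held 4 GC box cores, 1 AP-2 match and neither of the other boxes. The AREG window held 1 GC box core and 1 TATA box. Of 35116 RefSeq promoters, 45.0% hold the GC box core, 11.5% the TATA box, 34.6% the CCAAT box and 23.2% the AP-2 match. G and C made up 75.3% of the EGFR and TGFA windows and 66.3% of the AREG window, against a median of 58.7% over all promoters. The RefSeq table held 8 of the 10 members; ERBB3 and NRG1 were not among them.

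The data show 2 changes that set M-BM and Lat apart from S-BM. ERBB3 RNA was 2.0-fold lower in M-BM and 2.52-fold lower in Lat than in S-BM, on the log2(value + 1) scale, and NRG1 RNA, at a low level, was read in every M-BM and Lat library while S-BM held 1 read and Pa none. EGFR and TGFA, the main receptor and ligand of the EGFR arm, did not pass the test in any contrast, and no member did so between M-BM and Lat. Of the 10 members, 3 passed the filter (a value of at least 10 in at least 4 of 12 libraries): EGFR, ERBB3 and TGFA. The others are tested in a fit without a filter. In M-BM minus S-BM, 1 of these 3 was called (adjusted p under 0.05), where 52.7% of all 9646 tested genes were; in Lat minus S-BM it was 1 of 3, where 59.7% were; and in M-BM minus Lat 0 of 3, where 0.145% were. In the fit without a filter, the background was 34.8%, 41.0% and 0.123% of 19462 genes. A call against S-BM is thus common in these data, and the size of the change and the overlap of libraries are given with each. The share of tested genes without overlap between libraries was 46.2% for M-BM and S-BM, 54.5% for Lat and S-BM and 7.3% for M-BM and Lat.

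**Figure D1:**
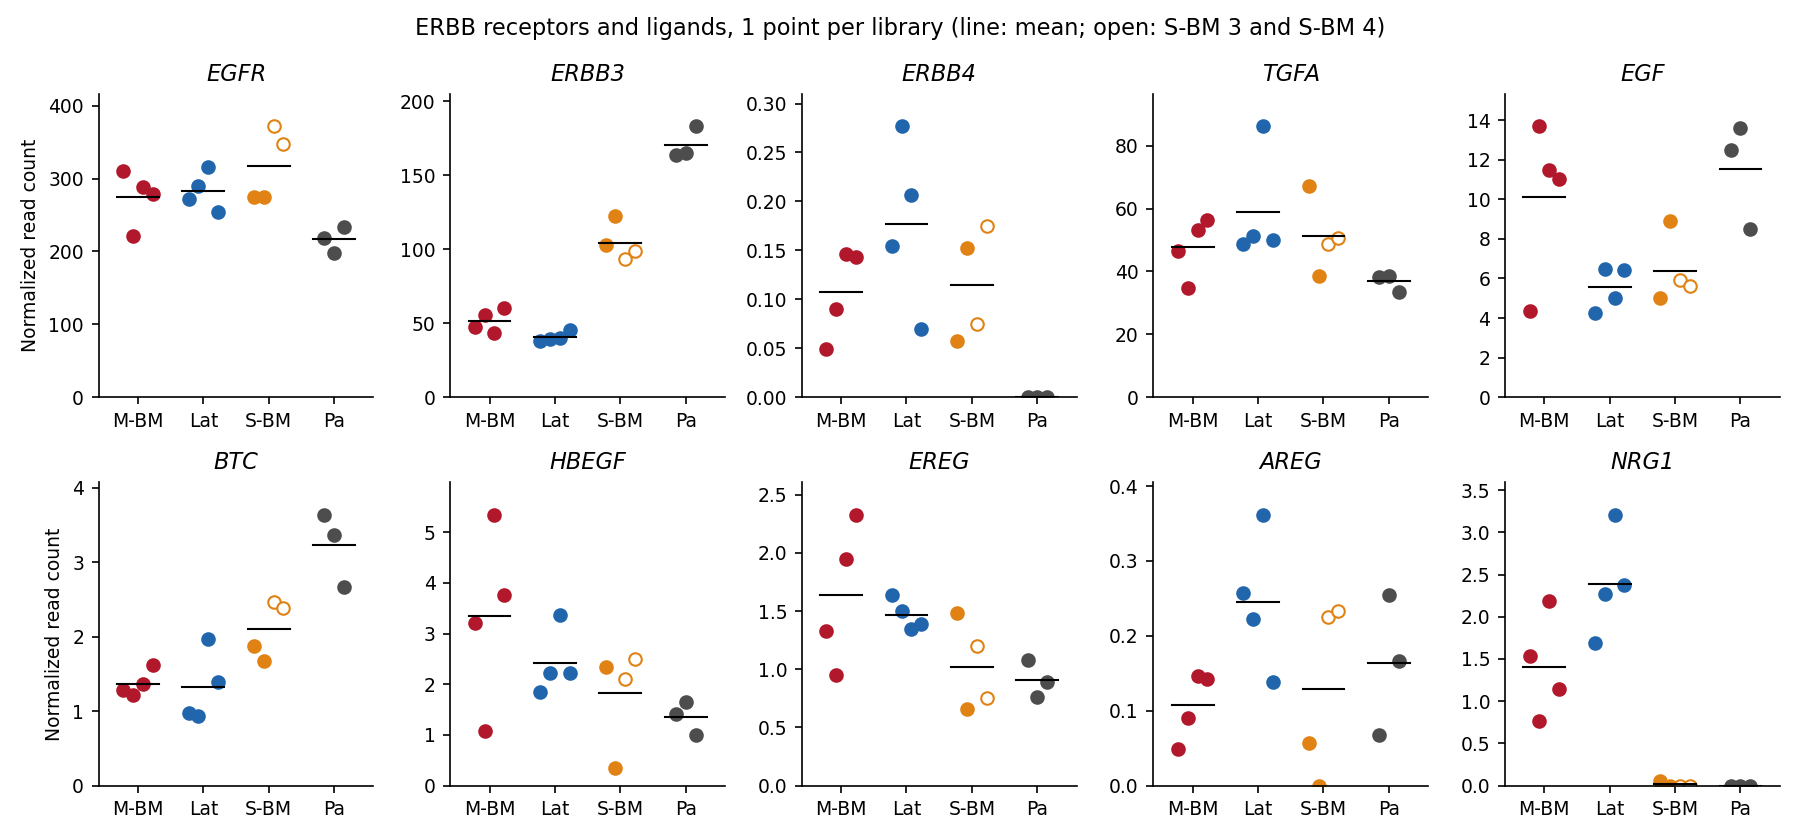
Normalized read count (vertical axis, own linear scale from 0 for each gene) of the 10 members in each library of M-BM, Lat, S-BM and Pa; each point is a library, the line is the group mean and open points are S-BM 3 and S-BM 4. ERBB3 lies at 37.7 to 60.5 in M-BM and Lat, below all S-BM libraries at 93.2 to 122.7 and all Pa libraries at 163.5 to 183.2, while NRG1 is at 0.768 to 3.21 in M-BM and Lat and at 0 in S-BM 2, 3 and 4 and in Pa.

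EGFR (chromosome 7, 55019021 to 55211628, GRCh38) was the most abundant member in the brain-derived cells. Its value was 310.3, 220.6, 288.4 and 278.5 in M-BM 1 to 4, and 272.3, 289.7, 316.3 and 254.6 in Lat 1 to 4. It was 274.1, 275.0, 372.2 and 347.5 in S-BM 1 to 4, and 218.6, 198.4 and 233.3 in Pa 1 to 3. The groups from brain overlapped, with S-BM 3 and S-BM 4 the highest libraries of all, and Pa lay below every Lat and S-BM library but not below M-BM 2. Means were 274.5 ± 38.3 in M-BM, 283.2 ± 26.3 in Lat and 317.2 ± 50.3 in S-BM (SD, n = 4 each), and 216.8 ± 17.5 in Pa (SD, n = 3). No contrast passed limma's test: the log2 change was -0.21 (SE 0.13, adjusted p = 0.195) in M-BM minus S-BM, -0.15 (SE 0.13, adjusted p = 0.32) in Lat minus S-BM and -0.05 (SE 0.13, adjusted p = 0.917) in M-BM minus Lat. Without S-BM 3 and S-BM 4, the change against S-BM was -0.01 in M-BM and 0.04 in Lat. The exons of EGFR share 186 bases with the antisense gene EGFR-AS1, whose reads the unstranded library kit cannot tell apart from those of EGFR.

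ERBB3 (chromosome 12, 56076799 to 56103505), the neuregulin receptor that pairs with ERBB2, fell in M-BM and in Lat relative to S-BM. It read 47.3, 55.8, 43.6 and 60.5 in M-BM 1 to 4, and 37.7, 39.6, 39.9 and 45.5 in Lat 1 to 4. It read 103.1, 122.7, 93.2 and 98.6 in S-BM 1 to 4, and 163.5, 165.2 and 183.2 in Pa 1 to 3. No library of M-BM or Lat reached the lowest S-BM library, and no S-BM library reached the lowest Pa library. Group means were 51.8 ± 7.73 in M-BM, 40.7 ± 3.36 in Lat and 104.4 ± 12.9 in S-BM (SD, n = 4 each), and 170.6 ± 10.9 in Pa (SD, n = 3). By limma with Benjamini-Hochberg adjustment the log2 change was -1.0 (SE 0.12, adjusted p = 1.83e-05) in M-BM minus S-BM and -1.33 (SE 0.12, adjusted p = 1.09e-06) in Lat minus S-BM. With the low-ERBB2 libraries S-BM 3 and S-BM 4 left out, the change was -1.12 in M-BM (adjusted p = 0.000149) and -1.45 in Lat (adjusted p = 1.79e-05). Exons of ERBB3 share 31 bases with a gene that is not in the tables. M-BM minus Lat was 0.33 (SE 0.12, adjusted p = 0.322), with overlapping libraries, and did not pass. At an unadjusted limma p under 0.05, ERBB3 alone of the 3 members that passed the filter would be called between M-BM and Lat, and edgeR and DESeq2 called 0 members there.

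Of the 6 epithelial markers, 3 fell together with ERBB3 (KRT8, KRT18 and CDH1) and 0 rose in M-BM relative to S-BM, where 25.8% of all tested genes fell, and the same 3 fell and 0 rose in Lat relative to S-BM, where 29.4% of all tested genes fell. KRT8, a keratin of luminal epithelium, averaged 568.3 ± 120.5 in M-BM and 531.9 ± 52.8 in Lat, against 1089.4 ± 66.2 in S-BM (SD, n = 4 each; log2 change -0.96 and -1.04, limma adjusted p = 6.8e-05 and 2.28e-05). CDH1, the adhesion protein E-cadherin, averaged 499.0 ± 81.3 in M-BM and 398.8 ± 39.5 in Lat, against 767.0 ± 83.1 in S-BM (log2 change -0.63 and -0.94, limma adjusted p = 0.000803 and 2.19e-05). KRT18, the partner of KRT8, fell as well (log2 change -0.40 in M-BM and -0.47 in Lat, limma adjusted p = 0.0116 and 0.00367). EPCAM did not pass (-0.23, adjusted p = 0.133 in M-BM and -0.28, adjusted p = 0.0687 in Lat), nor did KRT19 (0.14, adjusted p = 0.596 in M-BM and -0.40, adjusted p = 0.113 in Lat) or ERBB2 (1.35 in each, adjusted p = 0.117 in M-BM and 0.108 in Lat). The summed level of the 6 markers was 5138.7 to 7008.4 in M-BM, 5031.1 to 6202.4 in Lat and 3729.6 to 8518.4 in S-BM. ERBB2 was part of that sum, at 2801.3 to 4184.4 in M-BM, 2835.9 to 3774.8 in Lat and 353.1 to 4642.4 in S-BM. The sum therefore says little about the other markers. The part of this marker shift in the ERBB3 result was not tested. In bulk RNA, fewer cells with a transcript and less of it per cell cannot be told apart.

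The genes whose pattern over the 12 brain-derived libraries was most like that of ERBB3, by Pearson correlation of log2(value + 1), were NOTCH3 (r = 0.994), TJP3 (r = 0.992) and ABHD16A (r = 0.992). NOTCH3, a Notch receptor, averaged 21.5 ± 4.99 in M-BM, 14.5 ± 1.48 in Lat and 81.5 ± 22.6 in S-BM (SD, n = 4 each). TJP3, a tight junction protein, averaged 5.2 ± 2.67 in M-BM, 2.88 ± 0.598 in Lat and 27.1 ± 7.87 in S-BM. The libraries share groups and depth, so these coefficients describe a likeness of pattern. For EGFR the 3 closest genes were MRPS25 (r = 0.921), CORO1C (r = 0.919) and RPLP1 (r = 0.911), and for TGFA they were ENTPD5 (r = 0.91), ATP2B4 (r = 0.897) and NPAS2 (r = 0.896).

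ERBB4 (chromosome 2, 211375717 to 212538841), the other neuregulin receptor, was near the floor throughout. It had 1 to 3 reads per library in M-BM, 1 to 5 in Lat, 1 to 3 in S-BM and 0 in each Pa library. Only Lat 2, with 5 reads, and Lat 3, with 4, lay above the floor of 3 reads, so differences between groups were not detectable at this depth.

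Per length, the order of the receptors differed between Pa and all cells from brain. Dividing by the length of merged exons, EGFR stood above ERBB3 in each of the 12 M-BM, Lat and S-BM libraries and below it in each of the 3 Pa libraries. The EGFR level was 2.85 to 4.78 times that of ERBB3 in M-BM, 4.04 to 5.72 times in Lat, 1.62 to 2.88 times in S-BM and 0.867 to 0.965 times in Pa. With the longest coding transcript as the length instead, the ratio was 2.38 to 3.99 in M-BM, 3.37 to 4.78 in Lat, 1.35 to 2.41 in S-BM and 0.724 to 0.806 in Pa, with the same order in every library.

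ERBB2 remained the most abundant receptor per length in every library, though barely so in the S-BM pair with little of it. Per kb of merged exons, ERBB2 was 11 to 23 times as abundant as EGFR in M-BM, 10.9 to 18.0 times in Lat and 26.1 to 30.7 times in Pa. The ratio was 1.15 in S-BM 3 and 1.28 in S-BM 4, against 18.2 in S-BM 1 and 20.5 in S-BM 2. By longest transcript it was 1.94 in S-BM 3 and 2.17 in S-BM 4, against 30.7 in S-BM 1 and 34.6 in S-BM 2. Exons of ERBB2 overlap those of MIEN1 and PGAP3, which adds some uncertainty to its count. The ratio of ERBB2 to ERBB3, its partner, was 43.4 to 65.7 in M-BM, 62.2 to 77.6 in Lat and 24.0 to 26.7 in Pa. It was 3.32 in S-BM 3 and 3.26 in S-BM 4, against 34.9 in S-BM 1 and 33.1 in S-BM 2.

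**Figure D2:**
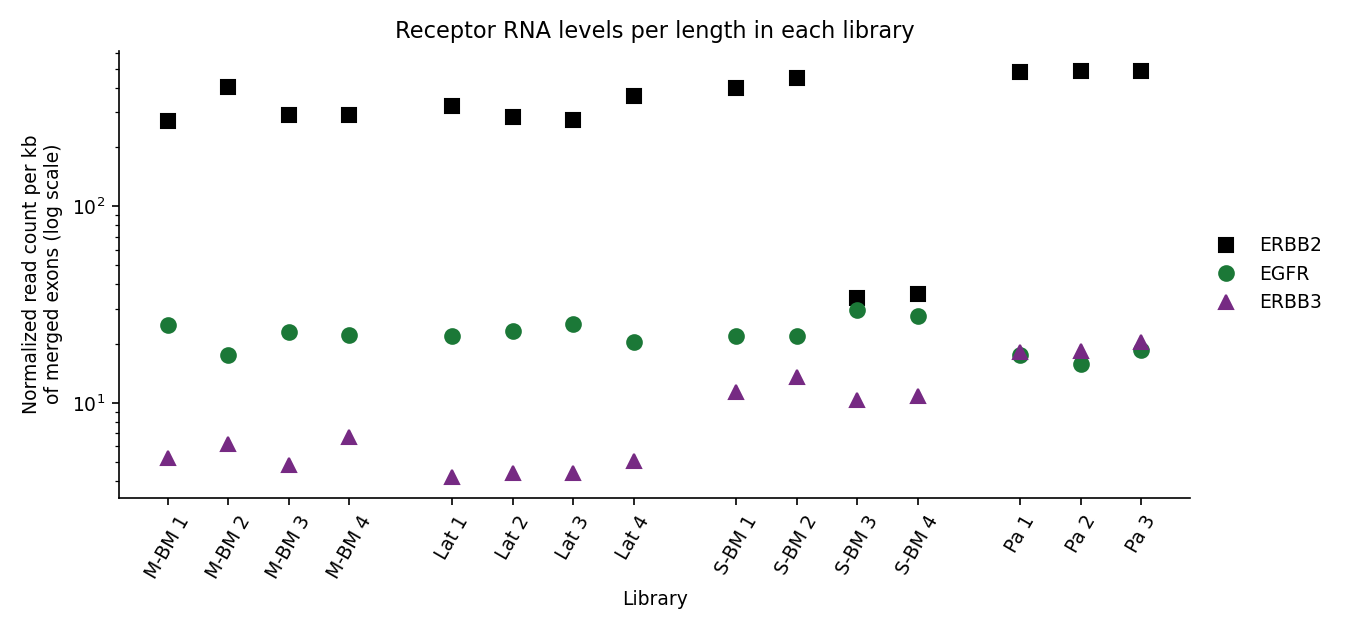
Normalized read count per kb of merged exons (log axis) for ERBB2, EGFR and ERBB3 in each of the 15 libraries, grouped as M-BM, Lat, S-BM and Pa. ERBB2 drops close to EGFR in S-BM 3 and S-BM 4, at 1.15 and 1.28 times its level, and ERBB3 lies below EGFR in every library except those of Pa.

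Setting S-BM 3 and S-BM 4 beside S-BM 1 and S-BM 2 is a description, since the pairs were known from ERBB2 and 2 against 2 libraries cannot reach 0.05 in an exact permutation test. With values under 3 reads set to that floor, no member lay 2-fold or more outside in both libraries, as 1.05% of all tested genes did. The EGFR level in S-BM 3 and S-BM 4 was 1.26 to 1.36 times that in S-BM 1 and S-BM 2, without overlap, and the BTC level 1.27 to 1.48 times. ERBB3 was lower without overlap, at 0.76 to 0.956 times. Non-overlap of this kind was found for 61.6% of tested genes, so it sets none of these members apart. TGFA, EGF, HBEGF and EREG overlapped, AREG had 3 reads in S-BM 3 and 4 in S-BM 4, against 1 in S-BM 1 and 0 in S-BM 2, which is at or close to the floor, and NRG1 had 1 read in S-BM 1 and 0 in the others.

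TGFA (chromosome 2, 70447280 to 70554193), which encodes TGF-alpha, was by far the most abundant ligand. Its value was 46.5, 34.9, 53.2 and 56.5 in M-BM 1 to 4, and 48.7, 51.4, 86.3 and 49.9 in Lat 1 to 4. It was 67.2, 38.6, 48.7 and 50.7 in S-BM 1 to 4, and 38.2, 38.7 and 33.6 in Pa 1 to 3. The brain-derived groups overlapped, Lat 3 stood above every other library, and all Lat libraries lay above Pa. Means were 47.8 ± 9.54 in M-BM, 59.1 ± 18.2 in Lat and 51.3 ± 11.9 in S-BM (SD, n = 4 each), and 36.8 ± 2.8 in Pa (SD, n = 3). No contrast passed, with limma adjusted p = 0.716 for M-BM minus S-BM, 0.456 for Lat minus S-BM and 0.662 for M-BM minus Lat. Of the summed per-kb level of the 6 EGFR ligands among the members, TGFA made up 68.4 to 79.0% in M-BM, 79.4 to 84.9% in Lat, 77.3 to 84.1% in S-BM and 64.6 to 69.8% in Pa.

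EGF (chromosome 4, 109912884 to 110012266), the founding ligand of the family, came next among the member ligands. M-BM 1 to 4 had 4.33, 13.7, 11.5 and 11, and Lat 1 to 4 had 4.26, 6.48, 5.02 and 6.42. S-BM 1 to 4 had 5.01, 8.91, 5.92 and 5.64, and Pa 1 to 3 had 12.5, 13.6 and 8.52. M-BM 1 lay within the range of Lat, while the other M-BM libraries lay above every Lat and S-BM library, at levels like those of Pa. Across all 4 M-BM libraries the log2 change was 0.53 against S-BM (SE 0.29, adjusted p = 0.192 by limma without a filter) and 0.69 against Lat (SE 0.29, adjusted p = 0.49). Without M-BM 1 the change against S-BM was 0.85 (adjusted p = 0.00834), so 1 library decides that call.

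The remaining EGFR ligands among the members were at values below 6 in every library. BTC (chromosome 4, 74744759 to 74794686), betacellulin, averaged 1.37 ± 0.175 in M-BM, 1.32 ± 0.478 in Lat and 2.1 ± 0.39 in S-BM (SD, n = 4 each), and 3.23 ± 0.501 in Pa (SD, n = 3). All libraries from brain lay below the lowest Pa library at 2.67. Lat minus S-BM was called in the limma fit without a filter (log2 change -0.43, SE 0.15, adjusted p = 0.0346), but Lat 3 at 1.97 overlapped S-BM, and the call was lost in 10 of 23 alternatives, among them edgeR (adjusted p = 0.0879), DESeq2 (adjusted p = 0.0834) and leaving out the low-ERBB2 pair S-BM 3 and S-BM 4 (log2 change -0.28, adjusted p = 0.263). Among single libraries, it was lost without Lat 1, Lat 2, Lat 4, S-BM 3 or S-BM 4, with an adjusted p of 0.0519 to 0.105. M-BM minus S-BM did not pass (log2 change -0.38, adjusted p = 0.0655), although no library overlapped, and it passed in 6 of 23 alternatives, among them leaving out Lat 3 (adjusted p = 0.0282) or S-BM 2 (adjusted p = 0.0451).

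HBEGF (chromosome 5, 140332843 to 140346631), which encodes the heparin-binding ligand HB-EGF, was uneven within groups. It read 3.2, 1.08, 5.35 and 3.76 in M-BM 1 to 4, and 1.85, 2.22, 3.36 and 2.23 in Lat 1 to 4. It read 2.34, 0.354, 2.1 and 2.5 in S-BM 1 to 4, where 0.354 is 7 reads, and 1.42, 1.66 and 1.0 in Pa 1 to 3. M-BM 2 and S-BM 2 were far below the rest of their groups, and M-BM overlapped S-BM. The log2 change in M-BM minus S-BM was 0.61 (SE 0.36, limma adjusted p = 0.222), and without M-BM 2 it was 0.93 (adjusted p = 0.0425). It was smaller without S-BM 2, at 0.29 (adjusted p = 0.543), and without M-BM 3, at 0.39 (adjusted p = 0.486).

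EREG (chromosome 4, 74365143 to 74388751), epiregulin, averaged 1.64 ± 0.618 in M-BM, 1.47 ± 0.131 in Lat and 1.02 ± 0.385 in S-BM (SD, n = 4 each), and 0.911 ± 0.159 in Pa (SD, n = 3). Neither change against S-BM passed limma's test (0.37, adjusted p = 0.122 for M-BM; 0.31, adjusted p = 0.19 for Lat), and as for HBEGF the outcome in M-BM turned on M-BM 2, without which the change was 0.51 (adjusted p = 0.0348). AREG (chromosome 4, 74445134 to 74455009), amphiregulin, had 1 to 3 reads per library in M-BM, 2 to 7 in Lat, 0 to 4 in S-BM and 1 to 4 in Pa. At that depth its groups could not be ordered. EPGN, a further EGFR ligand on the list of related genes and not among the members, averaged 6.73 ± 4.22 in M-BM and 13.0 ± 5.35 in Lat, against 3.42 ± 0.594 in S-BM (SD, n = 4 each), and lay at 11.1 to 12.5 in Pa. EPGN passed the filter through 3 Lat libraries and 1 M-BM library, with none of S-BM at the filter value, so its call in Lat adds nothing to the levels given. It rose in Lat relative to S-BM (log2 change 1.58, SE 0.39, limma adjusted p = 0.00303) and did not pass in M-BM relative to S-BM (0.62, adjusted p = 0.192), where libraries spanned 2.07 to 11.3; without M-BM 1 it passed (1.0, adjusted p = 0.0229).

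NRG1 (chromosome 8, 31639386 to 32767959) encodes the neuregulin that binds ERBB3 and ERBB4. Its value was 1.53, 0.768, 2.19 and 1.14 in M-BM 1 to 4 and 1.69, 2.27, 3.21 and 2.37 in Lat 1 to 4. It was 0.057, a single read, in S-BM 1 and 0 in S-BM 2, 3 and 4 and in all 3 Pa libraries. Every M-BM and Lat library, with 17 to 45 reads in M-BM and 33 to 62 in Lat, was thus above the floor, and no S-BM or Pa library was. Means were 1.41 ± 0.607 in M-BM and 2.39 ± 0.624 in Lat (SD, n = 4 each). In the limma fit without a filter, NRG1 rose in M-BM (log2 change of value + 1 of 1.21, SE 0.17, adjusted p = 0.000193) and in Lat (1.72, SE 0.17, adjusted p = 1.12e-05), both relative to S-BM. The pooled reads, scaled for depth, gave a ratio over S-BM of 94.5 in M-BM (95% counting interval 16.6 to 3762.7; 117 reads against 1) and 162.0 in Lat (28.7 to 6435.9; 170 reads against 1). With Pa, which had no read, set to 3 reads over the whole group, the ratio over Pa was 22.5 in M-BM and 38.6 in Lat. With counting error on both sides, the lower limit of the 95% interval of the ratio over Pa was 18.0 in M-BM and 31.1 in Lat. M-BM and Lat overlapped (log2 change of M-BM minus Lat -0.51, SE 0.17, limma adjusted p = 0.343). The pooled reads gave a ratio of M-BM over Lat of 0.583 (95% counting interval 0.457 to 0.742, 117 reads against 170). That interval leaves out the spread between libraries, which the limma test includes.

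Per kb, NRG1 remained far below the EGFR ligands that lead: 0.124 in M-BM and 0.211 in Lat, against a TGFA level of 9.63 in M-BM and 11.9 in Lat. The other neuregulins were at or near 0, with at most 7 reads of NRG2, 0 of NRG3 and 3 of NRG4 in any library. Of 16 markers of brain and host cells, 11 were in the tables. GFAP, MOG, SNAP25 and AIF1, which mark astrocytes, oligodendrocytes, neurons and microglia, had at most 2 reads in any library. CX3CR1, of microglia, had at most 5 reads in M-BM, 7 in Lat, 3 in S-BM and 1 in Pa. PTPRC, of leukocytes, had at most 6 reads in M-BM, 2 in Lat, 5 in S-BM and 2 in Pa. The summed level of the 11 was 107.5 to 161.2 in M-BM, 102.2 to 132.0 in Lat, 88.2 to 112.0 in S-BM and 116.7 to 117.9 in Pa, most of it MBP, which lay at 105.3 to 111.6 in Pa. OLIG2, a transcription factor of the oligodendrocyte lineage, was like NRG1 in that all M-BM and Lat libraries lay above all S-BM and Pa libraries, with 2.66 to 5.16 in M-BM, 4.14 to 5.16 in Lat, 0.354 to 1.5 in S-BM and 0.446 to 0.607 in Pa. SYT1, a neuronal vesicle protein, lay at 1.22 to 2.38 in M-BM, 1.05 to 4.3 in Lat, 0.304 to 2.85 in S-BM and 0.0675 to 0.668 in Pa. Others ran the other way or without order. PECAM1, of endothelial cells, lay at 3.26 to 5.6 in M-BM, 1.5 to 3.59 in Lat, 2.21 to 11.2 in S-BM and 3.78 to 10.1 in Pa. SLC1A2, an astrocyte glutamate transporter, lay at 0.0985 to 0.271 in M-BM, 0.0518 to 0.279 in Lat, 0.171 to 0.405 in S-BM and 0.39 to 0.675 in Pa. OLIG2, SYT1, PECAM1 and SLC1A2 were singled out after their values were seen, and their part in the NRG1 result was not tested.

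**Figure D3:**
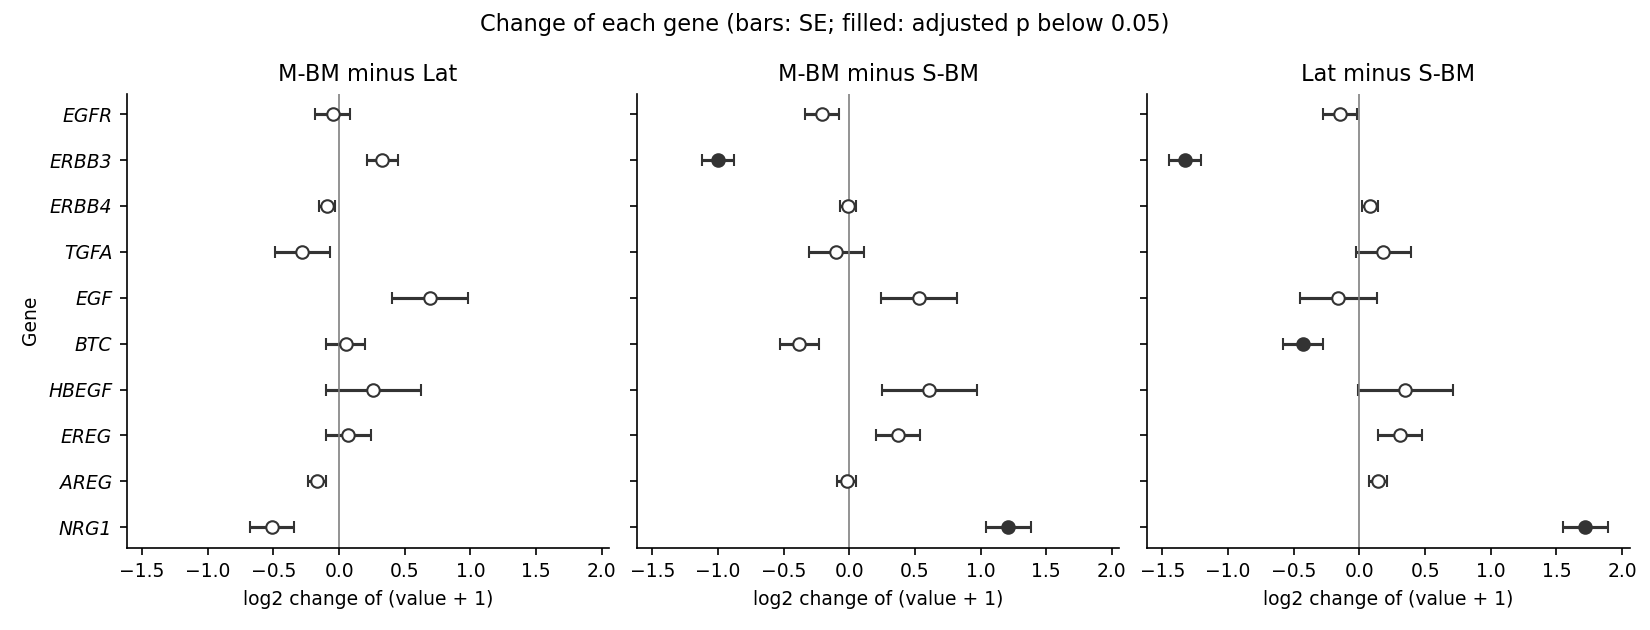
Log2 change of (value + 1) of each member (horizontal axis) in M-BM minus Lat, M-BM minus S-BM and Lat minus S-BM from limma; bars are standard errors and filled points have an adjusted p below 0.05, with members below the filter taken from the fit without it. ERBB3 lies at -1.0 and -1.33 and NRG1 at 1.21 and 1.72 against S-BM, BTC is called in Lat minus S-BM alone, and no point is filled in M-BM minus Lat.

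Across the members, the per-kb order in M-BM and in Lat was EGFR, TGFA, ERBB3, EGF, HBEGF, BTC, EREG, NRG1, AREG and ERBB4. In S-BM it began EGFR, ERBB3, TGFA, EGF, and in Pa ERBB3, EGFR, TGFA, EGF. NRG1 was last in S-BM, and in Pa NRG1 and ERBB4, both without a read, shared the last place. In M-BM and Lat, neighbours from EGF to BTC and from EREG to AREG overlapped between libraries, while EGFR, TGFA and ERBB3 did not. In S-BM, ERBB3 overlapped TGFA, and all neighbours from EGF down overlapped too. In Pa the ranges of ERBB3 and EGFR overlapped although ERBB3 was higher within each library, and EREG overlapped AREG. With the longest transcript as length, NRG1 moved above EREG in Lat, HBEGF moved above BTC in S-BM, and TGFA overlapped ERBB3 in M-BM.

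Set beside Pa, 2 members, ERBB3 and NRG1, lay at least 2-fold outside the Pa range in every M-BM library and in every Lat library. Of all tested genes, 9.56% did so in M-BM and 14.0% in Lat. These shares cover genes that passed the filter, which ERBB3 did and NRG1 did not. In S-BM no member did, against 0.974% of genes. The mean of ERBB3 in Pa was 3.29 times that in M-BM, 4.19 times that in Lat and 1.63 times that in S-BM. Short of 2-fold in every library, BTC was lower than Pa without overlap in M-BM, Lat and S-BM, ERBB3 was lower in S-BM, and EGFR was higher in S-BM. Of the EGFR arm, EGFR, TGFA, HBEGF and EREG were all higher in each Lat library than in each Pa library, at 1.31, 1.6, 1.78 and 1.61 times the Pa mean, and EGF was lower in each, at 0.48 times. Non-overlap with Pa was found for 71.3% of all tested genes in Lat, 66.5% in M-BM and 42.7% in S-BM, so it is not particular to these genes.

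Other genes of the pathway include those for proteins that release or carry the ligands. Of 10 genes on that list, 1 rose and 5 fell in M-BM relative to S-BM, and 1 rose and 4 fell in Lat, with a median log2 change of -0.36 in M-BM and -0.30 in Lat, against 0.01 over all genes in both. The median was -0.09 in M-BM and -0.21 in Lat once the low-ERBB2 pair was left out, and -0.07 in M-BM and -0.24 in Lat with close library pairs averaged. RHBDF1 passed the filter only through S-BM, RHBDL2 through S-BM and 1 M-BM library, and ADAM12 only through M-BM and Lat, so these 3 had to differ and their calls add nothing to the count. The medians include these 3 as well. Among the rest of the list, ADAM10, ADAM19 and BACE1 fell in M-BM, ADAM10 and BACE1 fell in Lat, and none rose. In the fit without a filter, of all 10 genes, 1 rose and 5 fell in M-BM, and 1 rose and 3 fell in Lat. The shares of all tested genes that rose and fell were 26.9% and 25.8% in M-BM, and 30.2% and 29.4% in Lat. The gene that rose was ADAM12, a metalloprotease that can cleave HB-EGF, at 24.8 ± 6.14 in M-BM and 26.7 ± 3.45 in Lat, against 0.296 ± 0.267 in S-BM (SD, n = 4 each) and 0.0637 to 0.111 in Pa. Its log2 change was 4.30 in M-BM and 4.43 in Lat (SE 0.20 each; limma adjusted p = 6.96e-09 and 5.12e-09). RHBDL2, a rhomboid protease, fell to 6.83 ± 2.4 in M-BM and 4.43 ± 0.446 in Lat, against 26.0 ± 2.07 in S-BM (log2 change -1.83 and -2.31, limma adjusted p = 5.02e-06 and 4.57e-07). ADAM10, which releases EGF and betacellulin in mouse cells, fell to 183.8 ± 21.5 in Lat, against 357.3 ± 44.6 in S-BM (log2 change -0.95, limma adjusted p = 1.92e-05). ADAM10 fell in M-BM as well (-0.67, limma adjusted p = 0.000487). ADAM19, which can cleave neuregulin in mouse cells, fell to 17.9 ± 8.44 in M-BM, against 47.6 ± 7.9 in S-BM (log2 change -1.47, limma adjusted p = 0.00151). In Lat, ADAM19 did not pass (-0.58, limma adjusted p = 0.128). With the low-ERBB2 pair left out, 8 of the 10 still passed the filter and 1 rose and 2 fell in both contrasts; the 4 that fell in Lat were also 2 without any one of S-BM 1, 2, 3 or 4.

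Adaptors and first effectors, which dock on the phosphorylated receptors, moved both ways. Of 16 genes, 2 rose and 7 fell in M-BM relative to S-BM, and 2 rose and 8 fell in Lat, with a median log2 change of -0.16 in M-BM and -0.18 in Lat. Among all tested genes, 26.9% rose and 25.8% fell in M-BM, and 30.2% rose and 29.4% fell in Lat. VAV2, which binds phosphorylated receptors, rose in M-BM (0.78, limma adjusted p = 0.000211) and in Lat (0.86, adjusted p = 6.56e-05), while its relative VAV3 fell in M-BM (-1.04, adjusted p = 0.000782) and in Lat (-1.40, adjusted p = 5.2e-05). VAV3 averaged 31.3 ± 10.2 in M-BM and 23.2 ± 0.757 in Lat, against 64.5 ± 17.3 in S-BM. GAB2, a docking protein for PI3K, fell (-0.87, adjusted p = 0.0267 in M-BM and -1.11, adjusted p = 0.00595 in Lat), with S-BM libraries spread from 17.6 to 54.2; the call for M-BM was lost without M-BM 1, M-BM 3, S-BM 1 or S-BM 2 (adjusted p = 0.0643 to 0.0889). The smallest calls were those of SHC1 in M-BM (0.31, adjusted p = 0.0279) and CRK in Lat (0.22, adjusted p = 0.0433), both adaptors; SHC1 lost its call without M-BM 2, 3 or 4 or S-BM 2, 3 or 4, and CRK without M-BM 3 or 4, Lat 1, 2 or 4 or S-BM 3 or 4, which leaves 1 gene that rose in each contrast.

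Of 17 tested genes for receptor turnover and feedback inhibition, 3 rose and 8 fell in M-BM, and 3 rose and 9 fell in Lat, each relative to S-BM (median log2 change -0.32 in M-BM and -0.30 in Lat). The shares over all tested genes were 26.9% that rose and 25.8% that fell in M-BM, and 30.2% and 29.4% in Lat. Without M-BM 1, without M-BM 3 or without the low-ERBB2 S-BM pair, 5 fell in M-BM. SH3KBP1, which encodes an adaptor that links CBL to receptor uptake, reached 366.0 ± 80.8 in M-BM and 366.0 ± 45.7 in Lat, against 101.7 ± 21.2 in S-BM (log2 change 1.84 and 1.86, limma adjusted p = 3.52e-06 and 1.28e-06). SPRED1, a RAS pathway inhibitor, rose as well (0.62, adjusted p = 0.000134 in M-BM and 0.68, adjusted p = 3.84e-05 in Lat). LRIG3, a relative of LRIG1, fell in M-BM (-0.55, adjusted p = 0.00713) and in Lat (-0.70, adjusted p = 0.00112). SOCS5, a suppressor of cytokine signalling, fell in M-BM (-0.60, adjusted p = 0.000461) and in Lat (-0.55, adjusted p = 0.000677). LRIG1, which promotes ERBB receptor degradation, fell in Lat (-1.09, adjusted p = 0.0145) and did not pass in M-BM (-0.82, adjusted p = 0.0602). LRIG1 lay at 5.09 to 7.45 in Lat, against 8.25 to 36.3 in S-BM and 59.1 to 63.1 in Pa. It passed the filter through 3 S-BM libraries and 1 M-BM library, with none of Lat at the filter value. Its call in Lat therefore adds nothing to the count.

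The last list holds genes whose RNA follows MAPK activity. Of 10 genes, 8 rose and 1 fell in M-BM relative to S-BM, and 8 rose and 1 fell in Lat (median log2 change 0.98 in M-BM and 0.92 in Lat, against 0.01 over all genes). Among all tested genes, 26.9% rose and 25.8% fell in M-BM, and 30.2% rose and 29.4% fell in Lat. Under every alternative run, 8 were called higher in each contrast; without S-BM 3 and S-BM 4, 8 rose and 0 fell, with medians of 0.92 in M-BM and 0.86 in Lat. PHLDA1 averaged 493.4 ± 131.4 in M-BM and 435.7 ± 15.8 in Lat, against 176.0 ± 47.7 in S-BM (log2 change 1.48 and 1.34, limma adjusted p = 2.9e-05 and 3.62e-05). ETV5, a transcription factor of the PEA3 group, averaged 153.8 ± 10.3 in M-BM, against 66.8 ± 22.3 in S-BM (log2 change 1.24, adjusted p = 3.88e-05). ETV5 rose in Lat as well (1.16, limma adjusted p = 3.76e-05). EPHA2, an ephrin receptor, averaged 241.1 ± 85.8 in Lat, against 97.1 ± 29.1 in S-BM (log2 change 1.31, adjusted p = 0.000545). In M-BM, EPHA2 rose too (1.0, limma adjusted p = 0.0045). EPHA4 was the gene that fell, to 16.5 ± 4.18 in M-BM and 18.0 ± 0.774 in Lat, against 29.5 ± 8.75 in S-BM (log2 change -0.78 and -0.63, limma adjusted p = 0.00614 and 0.0165), and both calls were lost once the low-ERBB2 S-BM pair was left out (log2 change -0.63, adjusted p = 0.0643 in M-BM and -0.49, adjusted p = 0.132 in Lat), the Lat call also without S-BM 2 (-0.50, adjusted p = 0.0546). SPRY4 passed the filter through M-BM and Lat and 1 S-BM library, so its calls add nothing to the count, though the medians include it. The other genes that rose were PHLDA1, ETV4, ETV5, DUSP4, DUSP6, CCND1 and EPHA2, and each reached the filter value in every library of the 3 groups. In M-BM minus Lat, no gene of these 4 lists was called by limma or edgeR, and DESeq2 called 1, for receptor turnover.

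**Figure D4:**
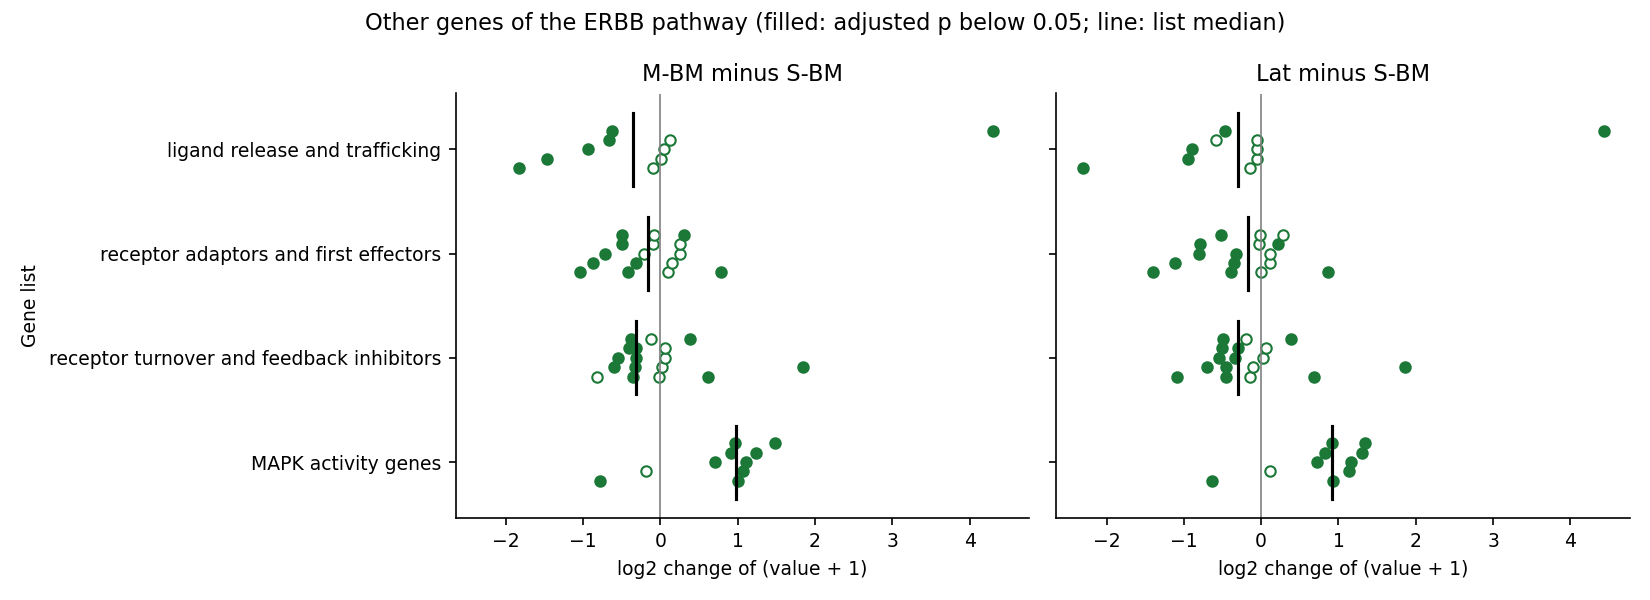
Log2 change of (value + 1) of each tested gene (horizontal axis) on 4 lists of the ERBB pathway, in M-BM minus S-BM and Lat minus S-BM; filled points have a limma adjusted p below 0.05 and black lines are list medians. Of the 10 MAPK activity genes, 8 are filled to the right of 0 and EPHA4 is filled to the left, and the list medians are 0.98 in M-BM and 0.92 in Lat; the other lists have medians of -0.36 to -0.16, and the isolated point above 4 is ADAM12.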

How the data were processed

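Total RNA (RNeasy) was turned into TruSeq RNA v2 libraries, per the labels' protocols, a preparation without strand marking. The submitters' processing notes name Bowtie 0.12.2 and GRCh38; how reads were counted and scaled is not given in the sources used here. Values are signal, read counts that the authors scaled before they were deposited, and each was a whole multiple of a library's value of 1 read within 0.05 reads, which gave back reads. No sample was dropped or imputed.

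Members and lists were chosen with earlier results of these data known. M-BM, Lat and S-BM were fitted together with limma 3.58.1 (R 4.3.3) on log2(value + 1) with a variance trend, 3 group means and 9 residual degrees of freedom. Genes at 10 or more in at least 4 of 12 libraries (9646) were tested two-sided with Benjamini-Hochberg adjustment at 0.05; members below the filter come from the same fit on all 19462 genes with a value above 0. The code was tested on simulated data. All members and ERBB2 are named, and, from each list, per contrast and direction, the 2 called genes with the largest change; other genes named were chosen after their values were seen. Alternatives were other pseudocounts, filters and normalizations, edgeR 4.0.16 and DESeq2 1.42.0 on recovered reads, a replicate block, left-out or averaged libraries and limma without the trend. Lengths are from GENCODE on GRCh38, promoters from RefSeq on GRCh38.p14.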

Additional observations from a re-analysis of the deposited data

Results flagged for a closer look

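In groups of 4 libraries, a library was singled out when its gap to the nearest other library, divided by the range of the group, exceeded the 95% critical value of Dixon's test; chance alone singles out about 1 in 20 groups, and 2 of 29 groups were. TGFA in Lat was the first: Lat 3 had 86.3 normalized reads, against 48.7 to 51.4 in the rest of Lat, a gap of 0.927 of the range. Its contrasts stayed uncalled under all alternatives, those without Lat 3 included. ERBB2 in M-BM was the second: M-BM 2 had 4184.4, against 2801.3 to 2995.8 in the other M-BM libraries, a gap of 0.859 of the range. The EGFR value of M-BM 2, 220.6, was also the lowest of the M-BM, Lat and S-BM libraries. M-BM 2 had the highest ratio of ERBB2 to EGFR outside Pa, 23 per kb.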

How the results depend on the processing

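With a filter of 1 or with none, the members called came to 2 instead of 1 in M-BM minus S-BM (ERBB3 and NRG1) and to 3 instead of 1 in Lat minus S-BM (BTC as well), since NRG1 and BTC are then tested. Of all 12853 genes tested with a filter of 1, 6547 were called in M-BM minus S-BM and 7442 in Lat minus S-BM. With no filter, the shares were 34.8% and 41.0%. With 4-fold in place of 2-fold, 0 members in M-BM and 1 in Lat, in place of 2 in each, lay outside the Pa range. The share of all genes at 4-fold was not counted, so these 4-fold counts have no background. Leaving out 1 library at a time left the members called at 1 in both contrasts against S-BM and at 0 in M-BM minus Lat, and the members outside the Pa range at 2 to 3 in M-BM, 2 in Lat and 0 in S-BM. ERBB3 stayed called against S-BM under all 24 alternatives, at -1.12 to -0.89 in M-BM (adjusted p at most 0.00021) and -1.45 to -1.17 in Lat (at most 3.49e-05). NRG1 stayed called under all 23 that tested it (adjusted p at most 0.00383 in M-BM and 0.000403 in Lat); by edgeR on recovered reads the log2 change was 6.05 and 6.81. AREG passed in Lat minus S-BM under 1 alternative, which left out the low-ERBB2 S-BM pair (0.27, adjusted p = 0.00972), on at most 7 reads a library. No change reversed among called results.

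Residuals of libraries with the same replicate number correlated at -0.272 to 0.319, with 4 of 12 pairs over 0.1. Those of libraries with other numbers correlated at -0.305 to 0.322, with 7 of 36 pairs over 0.1. The ranges were alike, and the numbers were not taken to pair libraries. With the replicate block, the members called remained 1, 1 and 0 in number; BTC passed in M-BM minus S-BM (adjusted p = 0.0348). Genes with fewer than about 10 reads a library, here AREG and ERBB4, could not be compared at this depth.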

Other observations

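Some libraries stood at the extremes of their group for several members at once. M-BM 2 was the lowest M-BM library for 6 of the 10 members (EGFR, TGFA, BTC, HBEGF, EREG and NRG1), while M-BM 3 and M-BM 4 were the highest for 4 each. Lat 3 was the highest Lat library for 6 (EGFR, TGFA, BTC, HBEGF, AREG and NRG1), and Lat 1 was the lowest for 5 (ERBB3, TGFA, EGF, HBEGF and NRG1). S-BM 2 was the lowest S-BM library for 5 (TGFA, BTC, HBEGF, EREG and AREG) and the highest for ERBB3 and EGF. M-BM 2 and S-BM 2 had the highest ERBB2 value of their groups and Lat 3 the lowest of Lat, while Lat 4, with the highest of Lat (3774.8), was the lowest for 3 members and the highest for 1, and M-BM 1, with the lowest of M-BM (2801.3), was the lowest for 3 and the highest for 1. These counts were made after the values were seen and have no test.

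The mean level in S-BM lay between that of Pa and those of both M-BM and Lat for 9 of the 10 MAPK activity genes: 8 were lowest in Pa, and EPHA4 was highest there. Genes of the other lists lay between as well, so this place is not particular to MAPK activity genes. For ligand release, 1 such gene was lowest and 5 were highest in Pa, of 10 tested. For adaptors it was 2 and 6 of 16, and for receptor turnover 4 and 3 of 17. The share over all tested genes was not counted. CCND1, which encodes cyclin D1, averaged 3122.2 in M-BM, 3154.7 in Lat, 1683.9 in S-BM and 927.8 in Pa. DUSP6, an ERK phosphatase, averaged 156.4 in M-BM, 121.1 in Lat, 74.4 in S-BM and 35.1 in Pa. SPRY4, a RAS pathway inhibitor, averaged 19.1 in M-BM, 19.3 in Lat, 8.48 in S-BM and 4.97 in Pa. SPRY2, a close relative of SPRY4, was the exception, at 10.4 in M-BM, 12.9 in Lat, 12 in S-BM and 17.8 in Pa. Pa was not tested against the other groups, and these genes were picked after their values were seen.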
